A study of Mus musculus with 6 samples.

Results

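The acute phase genes Saa3, Saa1, Saa2, Lcn2, Hp, Crp, Pon1 and Orm1 were followed in mouse skin after 7 days of a subcutaneous pump. They were chosen by gene name, as every probe set of the array whose annotation names only 1 of these 8 genes, out of 12393 genes with such a probe set. The 8 names were picked with earlier results of these same arrays in view, so their values are given as a description and no p-value is given for any of them. The rule found 9 probe sets, 2 of them for Saa1. On GRCm38.p6 (RefSeq), Saa3 (chr7:46711998-46719615), Saa1 (chr7:46740497-46743181) and Saa2 (chr7:46751833-46754313) lie side by side. Lcn2 lies at chr2:32384637-32387739, Hp at chr8:109575128-109579172, Crp at chr1:172698056-172699966, Pon1 at chr6:5168090-5193987 and Orm1 at chr4:63344556-63348163.

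The acute phase response is the change in plasma proteins that follows injury or infection, driven mainly by IL-6, IL-1 and TNF. The liver is the main source, but skin, fat and leukocytes transcribe several of the same genes. Saa1 and Saa2 encode serum amyloid A proteins that travel on high-density lipoprotein, whereas mouse Saa3 is made chiefly by macrophages, adipocytes and epithelia outside the liver. Lcn2 binds bacterial siderophores, Hp (haptoglobin) binds free haemoglobin, Crp and Orm1 encode plasma proteins that rise in inflammation, and Pon1 is a paraoxonase of high-density lipoprotein whose level falls in inflammation.

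All animals were C57BL/6 mice. The 6 single-colour arrays comprised 2 of skin at the outlet of a TGF-beta pump (mouse 1 and mouse 2), 1 at the outlet of an IL-13 pump, 1 at the outlet of a TSLP pump, 1 of abdominal skin far from the outlet of a PBS pump (PBS distal), and 1 at the outlet of a PBS pump (PBS local). Sex and age are not given in the labels, nor whether the PBS distal and PBS local pieces came from 1 mouse. PBS distal skin differs from PBS local skin both in lacking the outlet and in body site, and these cannot be told apart.

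Array medians ran from 160 to 171 signal units. Of the markers of the labelled tissue, 6 of 7 keratinocyte and 6 of 6 fibroblast genes reached the median of all values (165 units) on at least 1 array, and so did 6 of 6 skeletal muscle genes. Most hepatocyte markers were low: 12 of 15 stayed below 165 units on every array, Alb (albumin) lying between 54.2 and 71.7 units, while Ttr, Cyp2e1 and Cps1 reached it. Cyp2e1 was bright, at 1392 and 442 units in the TGF-beta mice, 467 under IL-13 and 1596 under TSLP. It read 2071 units in PBS distal skin and 1068 in PBS local skin. Hair follicle markers summed to 39006 units in TGF-beta mouse 2, to between 164 and 2218 units in TGF-beta mouse 1, IL-13, TSLP and PBS distal skin, and to 124 units in PBS local skin. Exocrine pancreas markers, which skin is not known for, summed to 1386 and 7308 units in the TGF-beta mice, 9837 under IL-13, 8713 under TSLP, 570.4 in PBS distal skin and 3102 in PBS local skin. Whether any of this bears on the acute phase genes was not tested.

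Saa3 and Lcn2 stood far lower in PBS distal skin than on all 5 outlet arrays, and Saa1, at a dim signal, was lowest there too. The sequences around their starts of transcription, with that of Saa2, are shown here because the serum amyloid A genes lie side by side and because the C/EBP, STAT and kappaB families of transcription factors are the textbook regulators of acute phase genes. Each window runs from 250 bases before to 50 bases after the start, 5′ to 3′ on the gene's strand, from RefSeq on GRCm38.p6. The starts used for Saa3 and Saa1 lie inside the gene spans given above, short of the ends from which those genes are read. Capitals mark matches to TTNNGNAA on either strand, a C/EBP-type motif. RefSeq windows were matched for 6 of the 8 genes, and these are the 4 serum amyloid A and lipocalin ones, at chr7:46715627-46715926 (Saa3, minus strand), chr7:46742931-46743230 (Saa1, minus strand), chr7:46751583-46751882 (Saa2, plus strand) and chr2:32387690-32387989 (Lcn2, minus strand).
Saa3: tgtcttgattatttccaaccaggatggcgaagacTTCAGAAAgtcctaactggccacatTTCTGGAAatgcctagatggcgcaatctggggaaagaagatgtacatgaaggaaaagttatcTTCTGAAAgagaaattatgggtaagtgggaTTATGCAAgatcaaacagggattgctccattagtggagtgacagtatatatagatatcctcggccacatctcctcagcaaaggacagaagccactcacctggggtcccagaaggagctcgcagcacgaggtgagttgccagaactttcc
Saa1: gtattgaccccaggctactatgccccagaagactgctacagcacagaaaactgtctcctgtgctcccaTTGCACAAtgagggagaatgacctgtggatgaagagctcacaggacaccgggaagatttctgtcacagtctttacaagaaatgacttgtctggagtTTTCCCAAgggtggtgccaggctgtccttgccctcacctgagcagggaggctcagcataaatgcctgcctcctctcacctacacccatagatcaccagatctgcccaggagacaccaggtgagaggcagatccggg
Saa2: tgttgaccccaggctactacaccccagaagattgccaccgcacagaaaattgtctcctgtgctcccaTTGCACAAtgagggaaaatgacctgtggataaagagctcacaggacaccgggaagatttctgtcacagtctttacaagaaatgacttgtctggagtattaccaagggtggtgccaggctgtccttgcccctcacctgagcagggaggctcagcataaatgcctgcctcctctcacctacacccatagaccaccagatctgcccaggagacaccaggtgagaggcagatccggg
Lcn2: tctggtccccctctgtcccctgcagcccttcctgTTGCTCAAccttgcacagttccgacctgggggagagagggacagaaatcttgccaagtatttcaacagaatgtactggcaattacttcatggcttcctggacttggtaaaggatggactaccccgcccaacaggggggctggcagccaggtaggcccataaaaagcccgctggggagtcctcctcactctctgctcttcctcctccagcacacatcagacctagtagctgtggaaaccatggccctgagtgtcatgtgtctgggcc

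Saa3 held 4 matches to TTNNGNAA, beginning 216, 191, 129 and 99 bases before the start. Saa1 held 2, while Saa2, Lcn2, Crp and Pon1 held 1 each. Of all 32534 distinct RefSeq windows of this length, 40.7% held at least 1 match and 0.861% held at least 4. No match to TTCNNNGAA, a STAT-type motif, was found in the 6 windows, against 8.33% of all windows, and none to the kappaB consensus, against 4.53%. The Saa2 and Saa1 windows were identical at 287 of 301 aligned columns (95.3%), and the Saa3 and Saa1 windows at 54.2%. A match describes these letters only.

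Saa3 was high on all 5 outlet arrays. Its signal was 11649 units in TGF-beta mouse 1, 11467 in TGF-beta mouse 2, 10749 under IL-13, 9981 under TSLP, 231 in PBS distal skin and 5386 in PBS local skin. The 4 cytokine arrays lay close together and above PBS local skin, with PBS distal skin far below all others. In ratios of signals, TGF-beta mouse 1 was at 2.16 times PBS local skin, TGF-beta mouse 2 at 2.13 times, IL-13 at 2.00 times and TSLP at 1.85 times, whereas PBS distal skin was at 0.0428 times PBS local skin. Against PBS distal skin, the cytokine arrays were at 43.3 (TSLP) to 50.5 times (TGF-beta mouse 1).

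**Figure D1:**
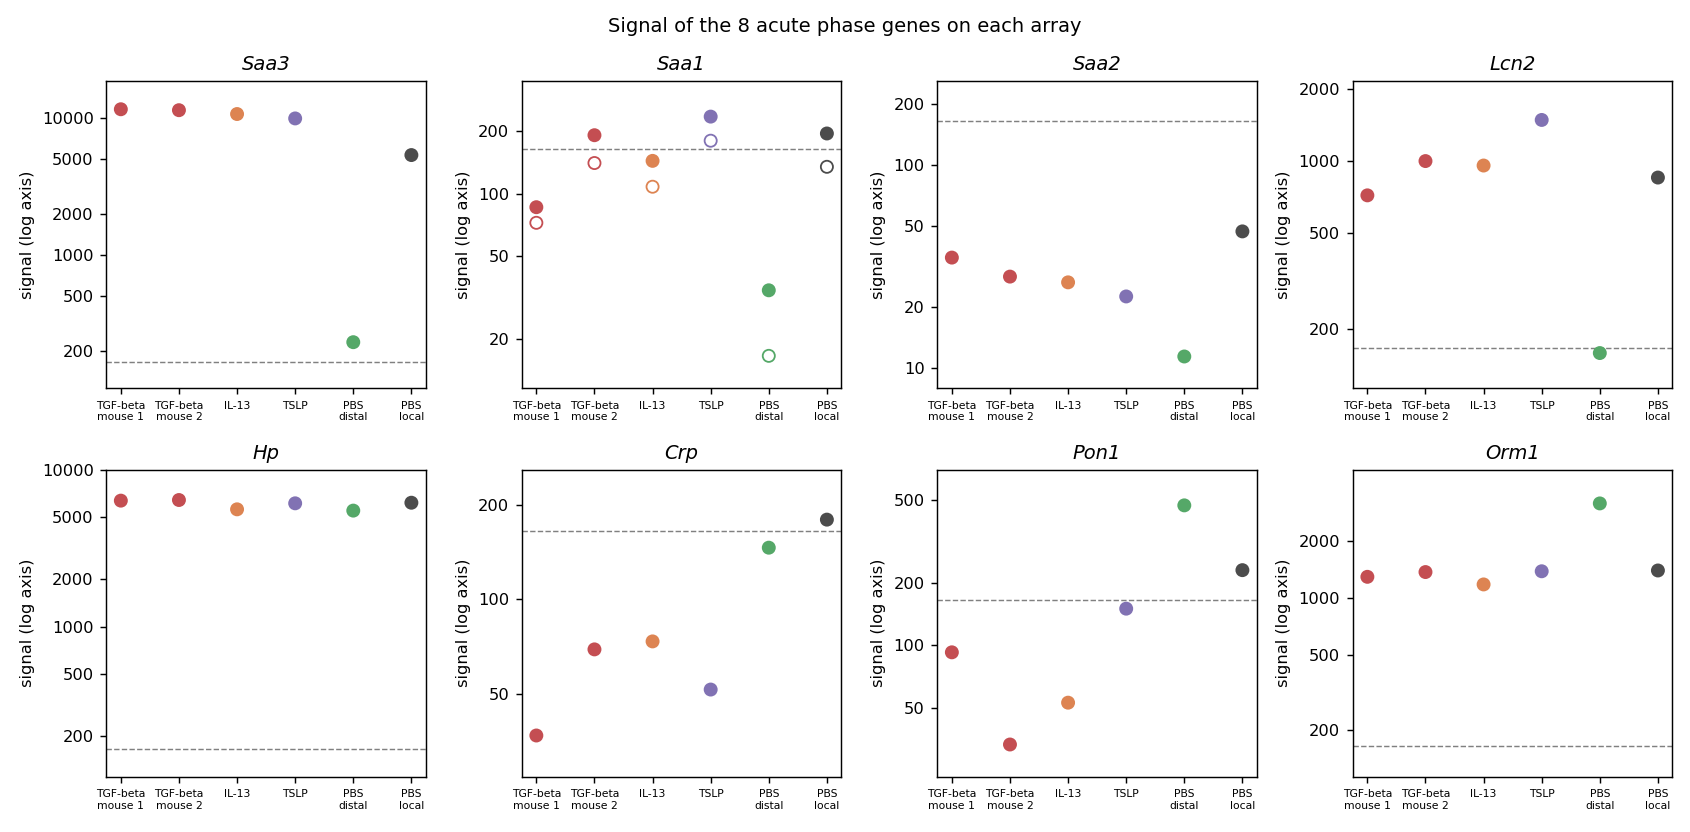
Signal of each acute phase gene on the 6 arrays, 1 point per array on a log axis whose range differs between panels. Open circles are the second Saa1 probe set, and the dashed line marks 165 units, the median of all values. Saa3, Saa1 and Lcn2 are lowest in PBS distal skin, Pon1 and Orm1 are highest there, and Hp is nearly level.

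Differences are given from here on in log2(signal + 27.4), a scale that understates changes of dim genes. A gene was counted as higher or lower when it differed by at least 1 on that scale (2-fold), in the same direction in both mice for TGF-beta, and when at least 1 compared array reached 165 units. Of the 8 genes, 7 passed this filter in each of the 4 comparisons and Saa2 passed in none. In the cytokine comparisons Crp and Pon1 passed through PBS local skin alone, and so did Saa1, Lcn2 and Crp in the comparison of PBS distal skin. Their counts as lower follow in part from the filter.

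For Saa3 the difference between TGF-beta and PBS local skin was 1.11 in mouse 1 and 1.09 in mouse 2, a mean of 1.10 ± 0.016 (SD, n = 2). This SD, like each one given below with n = 2, is the spread of the 2 TGF-beta mice only. PBS local skin is 1 array, so its own spread is unknown and not included. IL-13 and TSLP skin differed from PBS local skin by 0.99 and 0.89, just under 2-fold, and PBS distal skin by -4.39. In descending order the arrays ran TGF-beta mouse 1, TGF-beta mouse 2, IL-13, TSLP, PBS local and PBS distal. Each gap between neighbours among the 4 cytokine arrays was at most 0.11, smaller than 0.21, the SD of the difference between the TGF-beta mice over 120 genes of like level (within 0.5 of the Saa3 mean of the mice). The gaps from TSLP to PBS local skin and on to PBS distal skin were beyond it. The TGF-beta value slipped to 0.91 after quantile normalization, under the 2-fold mark. In that setting IL-13 stood at 0.89 and TSLP rose to 1.16, past the mark and highest of the cytokines. The order among the cytokines thus depends on the normalization.

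Saa1 was dim throughout and lowest in PBS distal skin. The probe set with the higher mean read 86.2 and 192 units in the TGF-beta mice, 144 under IL-13, 236 under TSLP, 34.2 in PBS distal skin and 195 in PBS local skin. The second probe set, whose target accession is a transcript of Saa2, read 72.4 and 141 units in the TGF-beta mice, 108 under IL-13, 180.3 under TSLP, 16.5 in PBS distal skin and 135 in PBS local skin. Both put the arrays in the same order except for TGF-beta mouse 2 and PBS local skin, which swap places. PBS distal skin differed from PBS local skin by -1.85 on the first probe set and -1.89 on the second. With an offset of 165 units in place of 27.4 the first shrank to -0.85, under the 2-fold mark. The cytokine arrays lay on both sides of PBS local skin, by -0.97 and -0.02 in the TGF-beta mice (mean -0.50 ± 0.67, SD, n = 2), -0.38 under IL-13 and 0.24 under TSLP. Among the outlet arrays every gap between neighbours in the order was below 0.60, the SD between the mice over 1565 genes of like level. Outlet arrays further apart in rank differed by more, up to 1.21 from the highest to the lowest.

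Saa2 stayed below 165 units on every array. It read 34.9 and 28.1 units in the TGF-beta mice, 26.4 under IL-13, 22.5 under TSLP, 11.3 in PBS distal skin and 47.0 in PBS local skin. No gap between arrays next to each other in rank exceeded 0.45, the SD between the mice over genes of like level. Arrays further apart in rank differed by more. Against PBS local skin, PBS distal skin stood at -0.94 and TSLP at -0.58, with IL-13 at -0.47 and TGF-beta at a mean of -0.34. The Saa2 and second Saa1 probe sets are of types that can bind related transcripts, so signals of Saa1 and Saa2 cannot be fully told apart on this array.

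Lcn2, the siderophore-binding lipocalin of neutrophils and stressed epithelium, had its highest value under TSLP and its lowest in PBS distal skin. Its signal was 721 and 1003 units in the TGF-beta mice, 961 under IL-13, 1489.6 under TSLP, 158 in PBS distal skin and 856 in PBS local skin. The 5 outlet arrays all lay above PBS distal skin, and the TGF-beta mice fell on either side of PBS local skin. The difference from PBS local skin was -2.25 in PBS distal skin and 0.78 under TSLP, against 0.16 under IL-13 and a mean of -0.01 ± 0.33 (SD, n = 2) under TGF-beta. The gap of 0.56 between TSLP and the next array, TGF-beta mouse 2, exceeded 0.44, the SD between the mice over 1766 genes of like level, while those from mouse 2 down to mouse 1 did not.

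Neutrophil markers were also low in PBS distal skin. Of 12 on the array, 6 reached 165 units on some array, and 5 of these (S100a8, S100a9, Csf3r, Camp and Ngp) were lower by 2-fold or more in PBS distal skin, against 3.51% of all genes tested, the sixth being Lrg1. In that comparison S100a9, Csf3r, Camp and Ngp passed the filter through PBS local skin alone, so their counts as lower follow in part from it. The 12 markers together summed to 8732 and 8891 units in the TGF-beta mice, 13515 under IL-13, 7893 under TSLP, 3839 in PBS distal skin and 8305 in PBS local skin. Without Lrg1, which supplied much of the signal in PBS skin, the sum was 7430.4 and 7128 units in the TGF-beta mice, 11311 under IL-13, 6531 under TSLP, 925 in PBS distal skin and 4919 in PBS local skin, so that TSLP skin lay above PBS local skin and not below it. This sum was chosen after the values were seen. S100a8 (2857 units under TSLP, 2392 in PBS local skin) and S100a9 (2458 and 1329) supplied most of it. Csf3r, Mmp8 and Trem1 were also higher under TSLP than in PBS local skin, while Cxcr2, Ltf, Camp, Ngp, Mpo and Elane were lower. Mpo, Elane, Ltf, Mmp8, Cxcr2 and Trem1 stayed below 165 units on every array. Macrophage markers summed to 51317 and 46298 units in the TGF-beta mice, 51713 under IL-13, 43745 under TSLP, 35245 units in PBS distal skin and 44036 units in PBS local skin. The part of either cell type in the Saa3 and Lcn2 values was not tested, and in whole skin fewer cells of a type and less RNA per cell cannot be told apart.

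Hp, which clears haemoglobin, hardly differed among the arrays. Its signal was 6383 and 6442 units in the TGF-beta mice, 5617 under IL-13, 6136 under TSLP, 5512 in PBS distal skin and 6190.0 in PBS local skin, the highest being 16.9% above the lowest. No gap between neighbours exceeded the SD of 0.24 between the mice over 252 genes of like level. Its difference from PBS local skin was 0.05 under TGF-beta (SD 0.0094, n = 2), -0.14 under IL-13, -0.01 under TSLP and -0.17 in PBS distal skin.

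Orm1, the plasma lipid carrier orosomucoid, set PBS distal skin apart from the outlet in the opposite direction to Saa3. Its signal was 1297 and 1375 units in the TGF-beta mice, 1182 under IL-13, 1388 under TSLP, 3169.9 in PBS distal skin and 1401 in PBS local skin. The outlet arrays spanned 0.24 on the log2 scale, and PBS distal skin differed from PBS local skin by 1.16, a ratio of 2.26. The differences under TGF-beta (-0.07 ± 0.058, SD, n = 2), IL-13 (-0.24) and TSLP (-0.01) were small beside it. Orm2 and Orm3, its neighbours in the family, stayed below 165 units on every array.

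Pon1 was also highest in PBS distal skin, and lower under the cytokines than in PBS local skin. Its signal was 92.4 and 33.3 units in the TGF-beta mice, 52.9 under IL-13, 149.8 under TSLP, 471 in PBS distal skin and 229.6 in PBS local skin. The 4 cytokine arrays all lay below both PBS arrays. Differences from PBS local skin were -1.10 and -2.08 in the TGF-beta mice (mean -1.59 ± 0.69, SD, n = 2), -1.68 under IL-13, -0.54 under TSLP and 0.95 in PBS distal skin. With the larger offset of 165 units the TGF-beta and IL-13 values shrank to -0.80 and -0.86. Apart from that between IL-13 and TGF-beta mouse 2, each gap between neighbours exceeded 0.51, the SD between the mice over 1311 genes of like level, of which 3.81% were at least 2-fold apart between the mice. For Pon1 itself, TGF-beta mouse 2 differed from mouse 1 by -0.98, more in size than any of these gaps. The IL-13 array lay between the 2 mice, so these gaps do not settle the order of the arrays. Pon2 and Pon3, the other paraoxonases, differed from PBS local skin by -0.23 and -0.02 under TGF-beta, -0.24 and 0.03 under IL-13, -0.26 and 0.08 under TSLP, and -0.19 and -0.13 in PBS distal skin.

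Of the 7 adipocyte markers on the array, 3 (Adipoq, Cidec and Retn) were highest in PBS distal skin and lowest under IL-13. The others differed, with Fabp4, Lpl and Car3 highest in TGF-beta mouse 1 and Lep highest under TSLP. Adipoq (adiponectin) read 4314 and 3474 units in the TGF-beta mice, 3127 under IL-13, 5420.3 under TSLP, 7359 in PBS distal skin and 3954 in PBS local skin. Cidec, a lipid droplet gene, read 545 and 315 units in the TGF-beta mice, 240.4 under IL-13, 631 under TSLP, 709 in PBS distal skin and 509 in PBS local skin. Over the 7 genes, all of which reached 165 units on some array, the summed signal was 51797 and 44205 units in the TGF-beta mice, 41647 under IL-13, 41815 under TSLP, 49717 in PBS distal skin and 41499.7 in PBS local skin. Car3 (20807 units in TGF-beta mouse 1 and 17557 in PBS distal skin) and Fabp4 (15829 and 12961) supplied most of this sum. Skeletal muscle markers summed to 84778 units in PBS distal skin and 61126 in PBS local skin. Under the cytokines they summed to 69238 and 52305 units (TGF-beta mice), 55751 (IL-13) and 51118 (TSLP). Most of the gap between the PBS sums came from Myh4 (16138.5 units in PBS distal and 2331 in PBS local skin) and Pvalb (10099 and 4956). For Acta1, Ckm, Tnnt3 and Mylpf, PBS distal skin differed from PBS local skin by only 0.14, 0.26, 0.14 and -0.03. Keratinocyte markers summed to 58807 units in PBS distal skin and 46610 in PBS local skin. Under the cytokines they summed to 50576 and 43097 units (TGF-beta mice), 46039 (IL-13) and 38659 (TSLP). The part of any of these cell types in the Pon1 and Orm1 values was not tested.

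Crp, the C-reactive protein gene, is only a minor acute phase reactant in mice. It was dim, with 36.7 and 69.2 units in the TGF-beta mice, 73.4 under IL-13, 51.5 under TSLP, 146 in PBS distal skin and 180.0 in PBS local skin. All 4 cytokine arrays lay below both PBS arrays. Differences from PBS local skin were -1.69 and -1.10 in the TGF-beta mice (mean -1.40 ± 0.42, SD, n = 2), -1.04 under IL-13, -1.39 under TSLP and -0.25 in PBS distal skin. The gap between PBS distal skin and the next array, IL-13, was 0.79, beyond the SD of 0.51 between the mice over 1347 genes of like level, while the gaps among the cytokine arrays and between the PBS arrays were not. PBS local skin, the common control of all these comparisons, was the only array on which Crp reached 165 units. With the offset of 165 units the cytokine differences shrank to between -0.53 and -0.67.

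**Figure D2:**
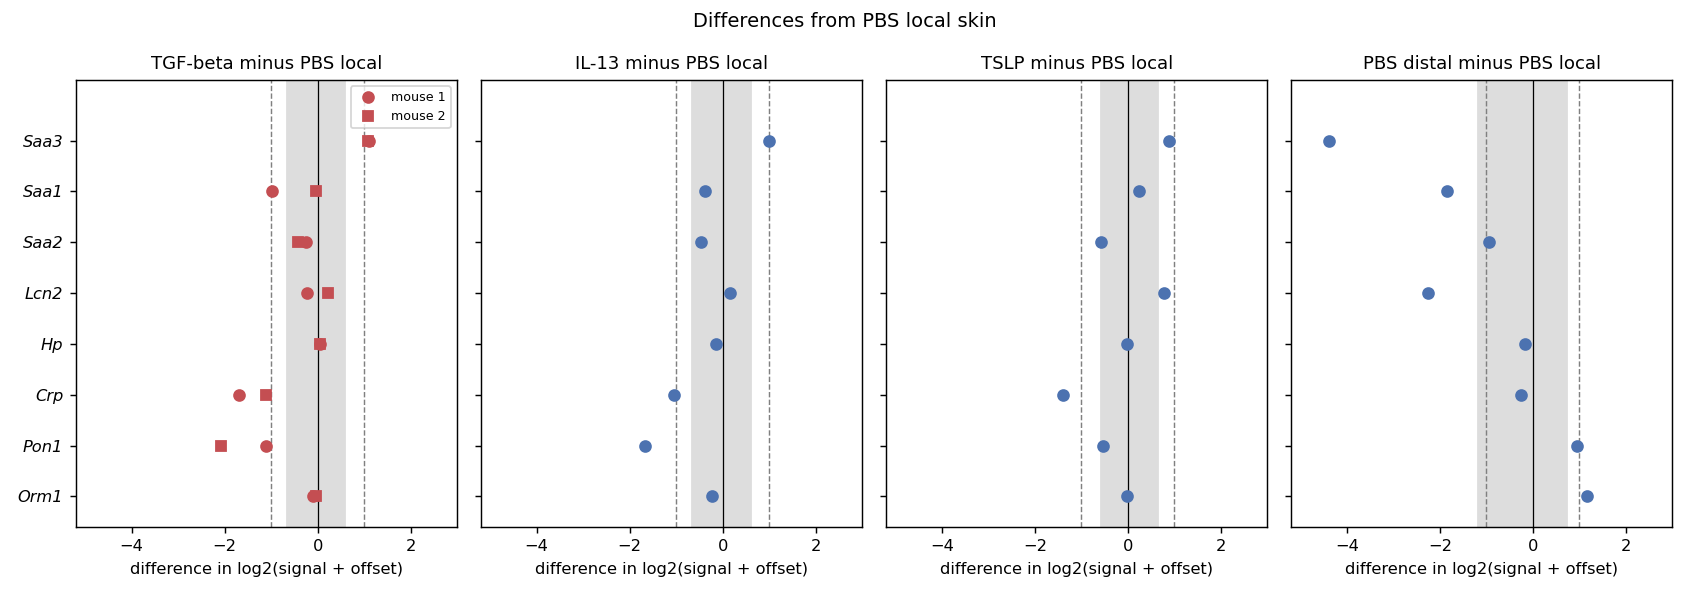
Difference of each acute phase gene from PBS local skin in log2(signal + 27.4), with TGF-beta mouse 1 as circles and mouse 2 as squares and 1 array a group elsewhere. Dashed lines mark 2-fold and the grey band holds the middle 95% of all genes tested. Saa3 lies to the right under each cytokine and at -4.39 in PBS distal skin, and Crp and Pon1 lie to the left under each cytokine.

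Under TGF-beta, 1 of the 7 genes passing the filter was at least 2-fold higher in both mice (Saa3), against 0.181% of 7741 genes, and 2 were at least 2-fold lower (Crp and Pon1), against 0.155%. With mouse 1 alone the same genes passed, against 0.349% of all genes higher and 0.607% lower, and with mouse 2 alone as well, against 1.85% higher and 1.45% lower. Under IL-13, 0 of 7 were higher, against 1.12% of 7562 genes, and 2 were lower (Crp and Pon1), against 0.41%. Under TSLP, 0 of 7 were higher, against 0.998% of 7614 genes, and 1 was lower (Crp), against 0.447%. In PBS distal skin 1 was higher (Orm1), against 0.788% of 7617 genes, and 3 were lower (Saa3, Saa1 and Lcn2), against 3.51%. These genes were partly chosen on these differences, so nothing is read from the counts. The median difference of all 8 genes, Saa2 included, was -0.20 under TGF-beta, -0.31 under IL-13, -0.01 under TSLP and -0.60 in PBS distal skin, beside -0.05, -0.07, -0.01 and -0.01 over all genes tested. Without Saa2 it was -0.07 under TGF-beta, -0.24 under IL-13, -0.01 under TSLP and -0.25 in PBS distal skin. In limma, fitted to all genes for TGF-beta against PBS local skin, 0 of 7741 genes (0.0%) passed an adjusted p of 0.05, none of the 7 among them, and 355 genes had an unadjusted p below 0.05. The smallest adjusted p was 0.864. IL-13, TSLP, PBS distal and PBS local skin have 1 array each and no replicate check. PBS local skin is the control of every comparison, so all the differences share that 1 array.

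Among the cytokines, receptors and regulators upstream of the acute phase response, Il6 and Il1b alone were counted as at least 2-fold apart from PBS local skin in any comparison. Il6 read 160 and 121 units in the TGF-beta mice, 477 under IL-13, 624 under TSLP, 25.9 in PBS distal skin and 106 in PBS local skin. Il1b read 415 and 483 units in the TGF-beta mice, 1578 under IL-13, 1059 under TSLP, 57.7 in PBS distal skin and 588 in PBS local skin. IL-13 and TSLP skin were thus above PBS local skin for both cytokines, whereas both TGF-beta mice were below it for Il1b. Il6 stayed under 165 units on both TGF-beta and both PBS arrays.

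Of the 24 genes in this list, 22 were on the array, and Il1a, Tnf, Lif and Il11 stayed below 165 units on every array. Under TGF-beta 0 of 17 were at least 2-fold higher or lower (median -0.33), against 0.181% and 0.155% of all genes tested. Under IL-13, Il6 (1.92) and Il1b (1.38) of 18 were higher and 0 were lower (median 0.17), against 1.12% and 0.41%. Under TSLP, Il6 (2.29) of 18 was higher and 0 were lower (median 0.25), against 0.998% and 0.447%. In PBS distal skin, Il1b (-2.85) of 17 was lower and 0 were higher (median -0.29), against 3.51% and 0.788%. Il6 passed the filter through the IL-13 or TSLP array alone, and Il1b in PBS distal skin through PBS local skin alone. Those counts follow in part from the filter. Socs3, the feedback inhibitor induced through STAT3, differed from PBS local skin by -0.55, 0.59, 0.34 and -0.93 under TGF-beta, IL-13 and TSLP and in PBS distal skin. Cebpd, a C/EBP factor of the acute phase, had -0.33, 0.20, 0.52 and -0.80 in the same order, while its relative Cebpb had 0.14, 0.42, 0.24 and 0.15. Stat3 had -0.33, -0.13, 0.03 and -0.38, the IL-6 receptor gene Il6ra -0.37, -0.12, 0.21 and 0.46, and the IL-1 receptor gene Il1r1 -0.28, -0.00, 0.07 and -0.96.

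Other positive acute phase genes were mostly either dim on every array or lower in PBS distal skin. Of 25 listed, 21 were on the array, and 12 of these, among them the fibrinogen genes Fga, Fgb and Fgg and the pentraxin Apcs, stayed below 165 units on every array. Of the 9 that passed the filter, 6 were lower by at least 2-fold in PBS distal skin and 0 were higher, against 3.51% and 0.788% of all genes tested, with a list median of -1.43. Ptx3, a pentraxin of stromal and myeloid cells, differed by -2.76, the protease inhibitor gene Serpina3n by -1.92, Lbp, which carries endotoxin to the receptor, by -1.63, the endotoxin co-receptor Cd14 by -1.60 and complement factor B, Cfb, by -1.43. The copper carrier Cp was the sixth.

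Among these positive genes fewer passed 2-fold under each cytokine than in PBS distal skin. Under TGF-beta 0 of 9 passed 2-fold with both mice, against 0.181% of all genes tested higher and 0.155% lower, with a median of -0.37. Under IL-13 the median was -0.01, with Cd14 higher by 1.32 and Hamp, the iron hormone hepcidin, at -1.10. That is 1 of 9 higher and 1 of 9 lower, against 1.12% and 0.41% of all genes tested. Hamp passed the filter there through PBS local skin alone. Under TSLP the median was 0.38, with Cd14 at 0.97, Cp at 0.83, Cfb at 0.79 and the leucine-rich glycoprotein Lrg1 at -1.30. That is 0 of 9 higher and 1 of 9 lower, against 0.998% and 0.447%. Lrg1 read 1301 and 1763 units in the TGF-beta mice, 2204 under IL-13, 1361 under TSLP, 2915 in PBS distal skin and 3387 in PBS local skin, and like Crp it was below both PBS arrays on all 4 cytokine arrays.

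Of the 12 negative acute phase genes besides Pon1, 11 were on the array and 4 passed the filter, with medians of 0.12 under TGF-beta, -0.06 under IL-13, 0.09 under TSLP and 0.11 in PBS distal skin. The carrier Ttr, at -1.12 under IL-13, was the only one past 2-fold in any comparison. It was 1 of 4 tested there, against 0.41% of all genes lower, and passed the filter through PBS local skin alone. Of the 14 genes for receptors and partners of acute phase proteins, 13 were on the array. Tlr2, for which serum amyloid A is a reported ligand, was the only one at least 2-fold apart from PBS local skin, at 1.10 under IL-13 and 1.03 under TSLP, with 0.66 under TGF-beta and -0.62 in PBS distal skin. It was 1 of 10 tested under IL-13 and 1 of 10 under TSLP, against 1.12% and 0.998% of all genes higher. Fpr2, the formyl peptide receptor that binds serum amyloid A, was at 0.10, 0.48, 0.60 and -0.69 under TGF-beta, IL-13 and TSLP and in PBS distal skin, and Cd163, the haptoglobin-haemoglobin receptor of macrophages, at -0.07, 0.21, 0.04 and -0.61.

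**Figure D3:**
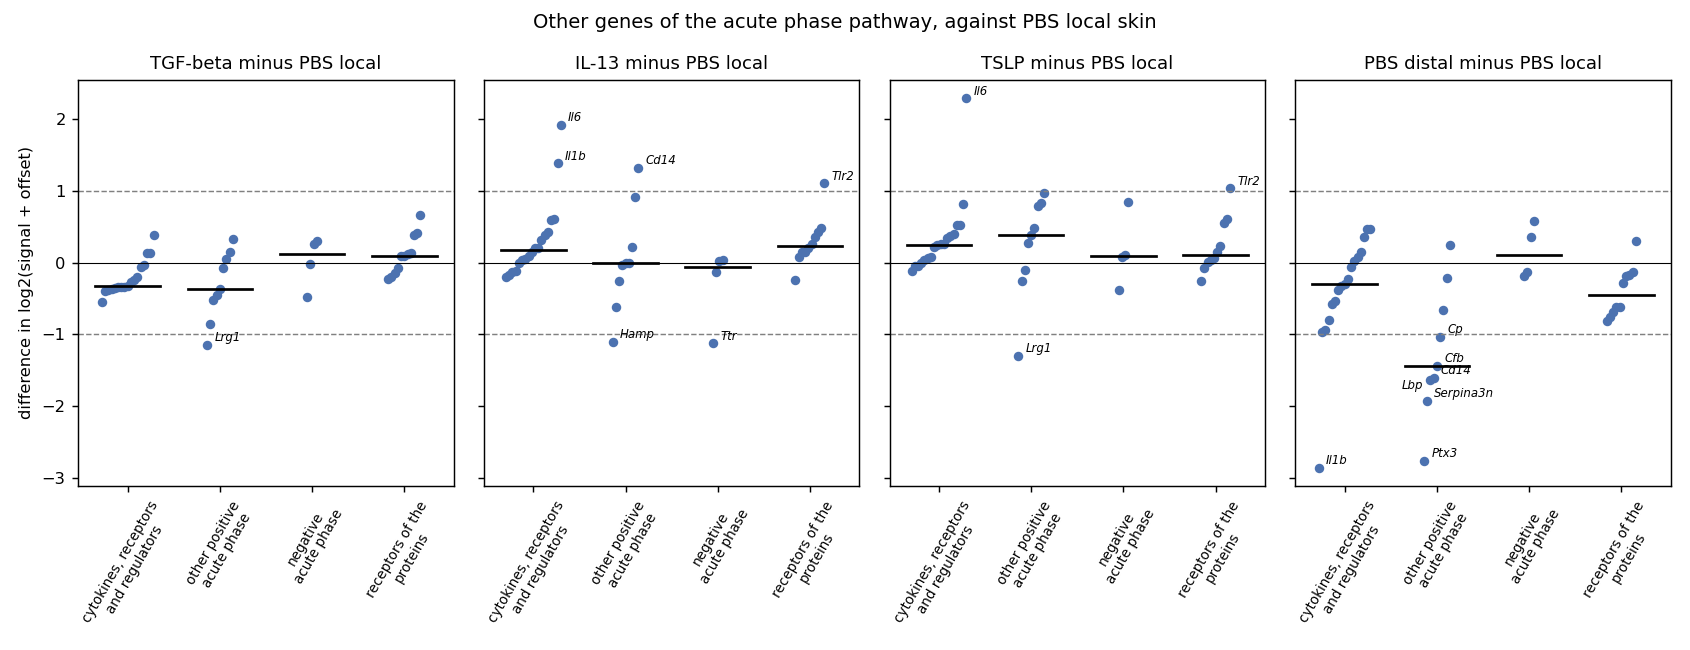
Difference from PBS local skin in log2(signal + 27.4) for the other genes of the acute phase pathway that passed the filter, 1 point per gene in 4 lists, with TGF-beta as the mean of both mice. Black bars are list medians, dashed lines mark 2-fold and genes beyond them are named. Lrg1 passes 2-fold in only 1 of the TGF-beta mice. The other positive acute phase genes lie lowest in PBS distal skin, with a median of -1.43.

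For each gene passing the filter and spanning at least 1 over the 6 arrays, the 3 genes with the most similar values were found among 7938 genes, by the root mean square (RMS) difference of log2 values after centring each gene on its own mean. Nearest to Saa3 were the myeloid lectin gene Clec4d (RMS 0.49), the lubricin gene Prg4 (0.60) and the matrix gene Tnc (0.69). Clec4d read 1522 and 1314 units in the TGF-beta mice, 2073 under IL-13, 1789 under TSLP, 49.4 in PBS distal skin and 582 in PBS local skin, so that it too stood higher on every cytokine array than in PBS local skin. Prg4 read 1776 units in PBS local skin, within the range of its cytokine arrays.

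Nearest to Lcn2 were the protease gene Adamts15 (0.22), the zinc transporter Slc39a14 (0.30) and Csf3r, the receptor for the neutrophil growth factor G-CSF (0.31). Nearest to Saa1 were the complement gene C6 (0.24), the mast cell receptor chain Fcer1a (0.27) and Serpina3n (0.31). Nearest to Crp were Lrg1 (0.15), Akr1cl (0.23) and the transglutaminase Tgm2 (0.26). Nearest to Pon1 were Mlf1 (0.37), the muscle glycogen phosphorylase Pygm (0.39) and Lyve1 (0.41), a marker of lymphatic vessels. Nearest to Orm1 were the keratin Krt23 (0.084), Capn9 (0.091) and Agpat5 (0.093), all with PBS distal skin highest. Likeness over 6 arrays says nothing of shared function.

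**Figure D4:**
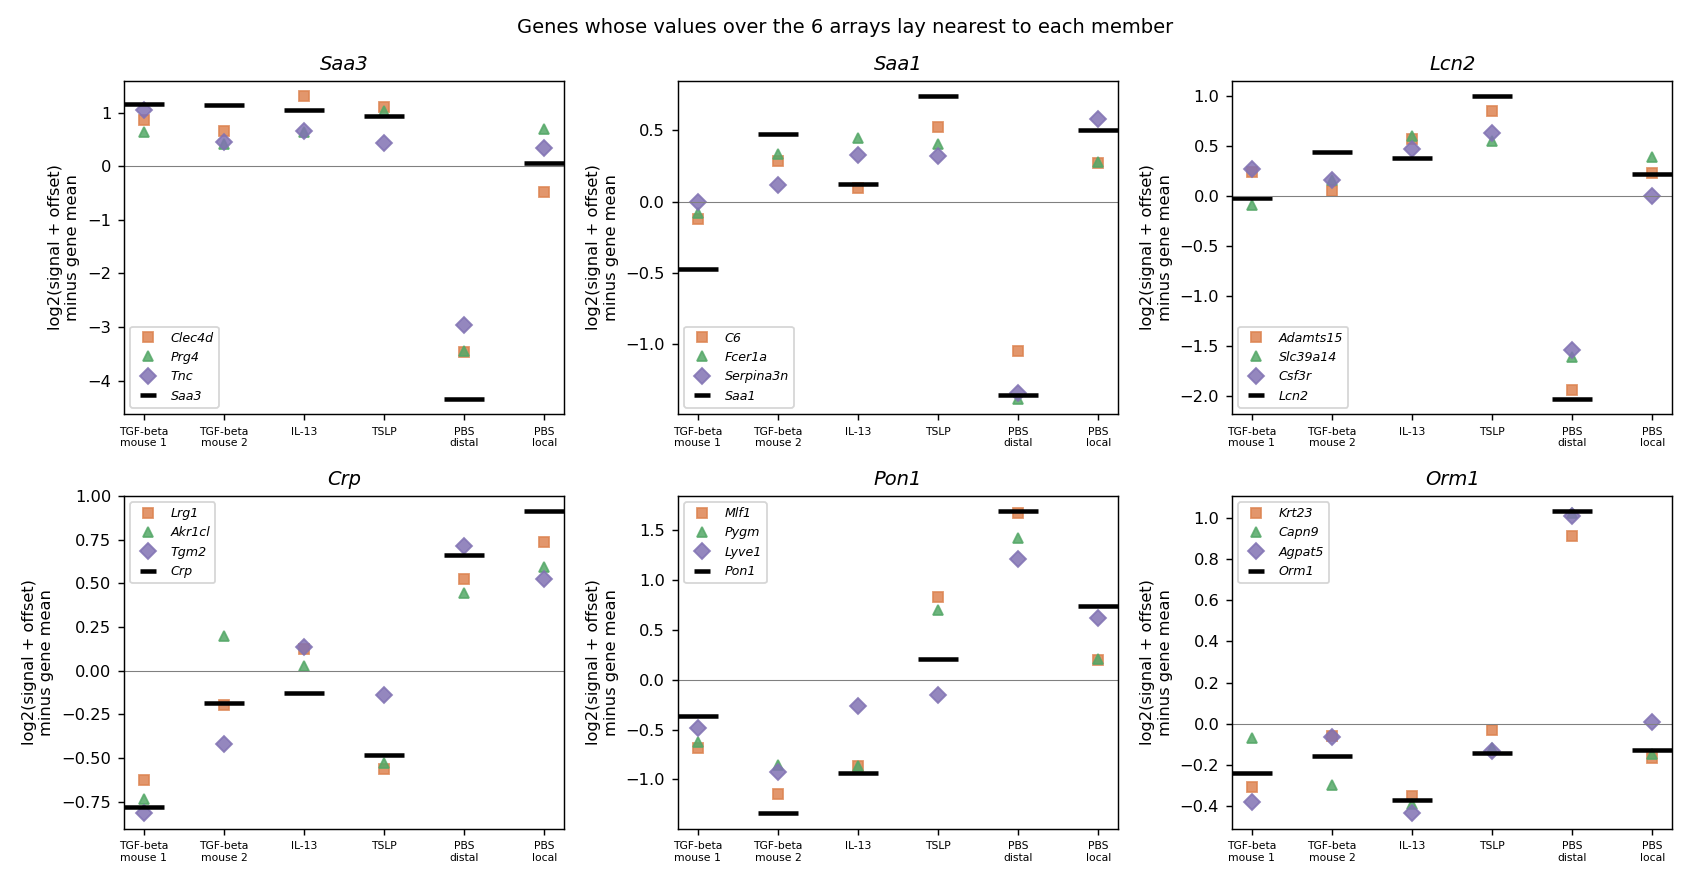
Values of 6 acute phase genes (black bars) and of the 3 genes nearest to each (coloured symbols) on the 6 arrays, as log2(signal + 27.4) minus each gene's own mean. Saa3, Saa1 and Lcn2 and their neighbours are lowest in PBS distal skin, and Pon1 and Orm1 and theirs are highest there.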

How the data were processed

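RNA from mouse skin was hybridised to 6 single-colour Affymetrix arrays. As deposited, each probe set has a linear intensity (signal). Per the submitters' processing notes MAS5 was used, its version being not given in the sources used here. On every array, 2% being trimmed off each end, the mean lay between 500.16 and 500.2 units. Arrays were scaled to a common trimmed mean and taken as log2(signal + 27.4), the offset being the 25th percentile of all values. The probe set with the highest mean stood for a gene, giving 12393 genes. Symbols were updated by gene number from RefSeq (GRCm38.p6) for 20351 of 20380 single-gene probe sets. No per-sample column was left unused.

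TGF-beta was compared with PBS local skin in limma 3.58.1 (R 4.3.3), with all 6 arrays in 5 groups and an intensity trend, Benjamini-Hochberg adjusted over all genes. Only the TGF-beta mice gave a spread (1 residual degree of freedom). Python 3.11.15 and Biopython 1.88 served the rest, the latter aligning promoters globally. The members and lists were chosen with earlier results of these data known. Beyond the 8 genes, named genes were list members past 2-fold (at most 5 per list and comparison), 8 pathway genes named in any case, and the 3 nearest by pattern. A few others with family ties, or for cell types, were named after their values were seen. The number of arrays limits the precision. The p-values rest on the spread between the 2 TGF-beta mice, pooled in part over genes, and include none within the other groups.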

Additional observations from a re-analysis of the deposited data

How the results depend on the processing

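Alternatives were an offset at the 10th percentile or the median of all values, quantile normalization, no filter on dim genes and the mean of all probe sets. Of 176 differences of the 8 genes recomputed under these and with either TGF-beta mouse left out, none past 2-fold changed sign and 4 smaller ones did (Hp and Lcn2). limma called 0 genes under every setting, its smallest adjusted p running from 0.102 to 0.899. With the median offset, 0 of the 8 genes were at least 2-fold lower under TGF-beta, IL-13 or TSLP and 2 in PBS distal skin (Saa1 at -0.85 no longer), and all genes at least 2-fold higher numbered 5 (TGF-beta), 50 (IL-13), 42 (TSLP) and 24 (PBS distal), with 2, 10, 18 and 144 lower. With the 10th-percentile offset, 2 of the 8 were higher in PBS distal skin (Pon1 with Orm1), 29 genes were higher under TGF-beta and 48 lower under IL-13. After quantile normalization, 0 of the 8 were higher under TGF-beta, 1 was higher under TSLP (Saa3), 1 was lower under IL-13 (Pon1) and 2 were higher in PBS distal skin. Without the filter, 131 genes were higher under IL-13 and 101 in PBS distal skin. With 1 TGF-beta mouse alone the same 3 of the 8 passed, while all genes numbered 27 to 143 higher and 47 to 112 lower, the larger count in each direction without mouse 1. The causes were not tested. No paired analysis was possible, because only TGF-beta has 2 arrays and the labels do not link arrays of different groups to 1 mouse. Detection calls were not used here.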
